A study of Drosophila melanogaster with 12 samples.

Results

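The rows described here are the microRNA genes of a fly eye disc RNA study: 174 of the 15904 gene rows in the deposited tables. A row was taken when every gene symbol in it was a microRNA name, and the 174 rows hold 178 such symbols. Another 35 rows join 37 microRNA symbols with a host or neighbouring gene, and those, with let-7, mir-100 and mir-125 among them, were left out because their value cannot be given to the microRNA. Of the 174 rows, 112 were above 0 FPKM (fragments normalised to gene length and library size) in at least 1 of 4 groups and 43 were above 0 in all groups.

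Total RNA depleted of ribosomal RNA came from eye discs of wandering Drosophila melanogaster larvae, in 12 samples, 3 per group, with 30 pairs of discs per preparation. All flies had the w1118 background and carried UAS-GFP under sev-GAL4, which drives expression in disc cells that express sevenless. Control discs carried dco2/+ and no activated Ras, and the Ras group carried UAS-RasV12/dco2, where RasV12 is a constitutively active Ras. The RNAi-labelled group carried UAS-hsr{omega}RNAi/UAS-RasV12, aimed at the long noncoding RNA hsrω, and the EP3037 group carried EP3037/UAS-RasV12, which its label gives as raised hsrω. The dco2 allele was listed for the control and Ras groups only, so a dco2 difference and an hsrω difference cannot be told apart. The driver acts in a subset of disc cells while whole discs were measured, and in such bulk RNA fewer cells of a type and less RNA per cell cannot be told apart.

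Hsromega, the gene of hsrω, stood at 543 FPKM in control discs, 389 in Ras discs, 398 in the RNAi-labelled group and 606 in the EP3037 group. In the authors' deposited tables it passed the threshold in no comparison, and Ras with the RNAi-labelled group gave a log2 change of 0.04 (q = 1.00), so the total level did not show the labelled depletion. Ras85D, the gene of Ras, was 74.4 FPKM in control, 121 in Ras, 151 in the RNAi-labelled group and 142 in the EP3037 group. Its log2 changes from control were 0.70, 1.02 and 0.93 in that order. The authors' deposited tables gave q-values of 0.0509, 0.00789 and 0.00789, so control with Ras narrowly missed the threshold. All 9 eye disc markers (ey, toy, so, eya, dac, gl, ato, sev and elav) were found in the tables. Their summed level was 602 to 670 FPKM. Markers of other tissues were present at lower sums, none of their genes at 0 in all groups. Fat body markers summed to 46.3 FPKM in control, 15.9 in Ras, 8.02 in the RNAi-labelled group and 20.02 in the EP3037 group; haemocyte markers to 83.4, 74.8, 173 and 107, and ring gland markers to 113, 147, 60.7 and 56.2. Most of the haemocyte sum came from PPO1 (37.0, 37.8, 81.3 and 47.9 FPKM) and PPO2 (24.1, 26.2, 64.7 and 35.9), whereas NimC1 was highest in control (2.20, 0.322, 0.529 and 0.411). Muscle markers summed to 82.8 to 142 FPKM, brain neuron markers to 18.5 to 25.5, glia markers to 9.98 to 12.2 and salivary gland markers to 7.79 to 23.4. Some of these markers, among others the following, passed a q of 0.05 in Cuffdiff. From control to the RNAi-labelled group 5 of 5 fat body genes were lower, where 1.72% of all rows passed. From control to Ras 4 of 5 were lower, against 0.773% of all rows. From Ras to the RNAi-labelled group, 5 of 6 haemocyte genes were higher and 3 of 6 ring gland genes lower, against 0.743%. The part of these tissues in the microRNA values was not tested.

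A microRNA gene is transcribed as a long primary RNA in which the microRNA lies within a hairpin. Drosha and Pasha cut the hairpin out in the nucleus, Dcr-1 with Loqs trims it to a short duplex, and 1 strand guides AGO1 to partly complementary sites in messenger RNAs, which are then repressed through Gw and the CCR4-NOT deadenylases. A mirtron is a microRNA whose hairpin is a whole short intron, released by splicing in place of Drosha. In the eye disc microRNAs are known for tuning photoreceptor fate, sensory organ formation and cell death. The libraries here were of total RNA read as 50 bp pairs, with no selection of small RNA named in the protocols, so a row's value counts fragments assigned to the annotated hairpin gene and is not a measure of mature microRNA.

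The hairpins were 54 to 174 nt long with a median of 92.5 nt, as annotated for the 172 rows that matched a single hairpin. By position, 65 lay in an intron of a protein-coding gene on its strand, 31 filled a whole intron and were classed as mirtrons, 2 lay in a 3′ untranslated region (mir-1001 in tau and mir-92b in jigr1), 21 lay across a gene on the opposite strand, and 53 lay outside protein-coding genes. A locus that overlapped no other row of the deposited tables was held by 51 microRNA rows, and 123 lay inside the locus of another gene, whose fragments may have been split between the rows.

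Most microRNA rows were listed at 0 in any given group. The rows at 0 numbered 105 in control, 105 in Ras, 93 in the RNAi-labelled group and 99 in the EP3037 group, or 60.3%, 60.3%, 53.4% and 56.9% of the 174. Over all gene rows the corresponding shares were 13.8%, 15.4%, 14.3% and 12.97%. By number of groups above 0, 62 rows had none, 30 had 1, 25 had 2, 14 had 3 and 43 had 4. Detection therefore varied from group to group for 69 rows.

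Hairpin length went with both detection and level. Of the 31 rows with hairpins of up to 70 nt, 14 were above 0 in some group and 0 in all groups, yet their values above 0 ran from 137 to 8239 FPKM with a median of 718. The 21 rows of 71 to 85 nt had 5 detected in all groups and a median of 171 FPKM, and the 78 rows of 86 to 100 nt had 18 and a median of 35.7. Of the 42 rows over 100 nt, 38 were above 0 in some group and 20 in all, with a median of 7.51 FPKM. The shortest hairpins were thus either at 0 or high, while the longest were detected most often and at the lowest values. Across the 112 rows above 0 in any group, the Spearman correlation of mean FPKM with hairpin length was -0.73, and across the 43 rows above 0 in all groups it was -0.87. These are correlations across genes that share the same libraries, and FPKM is itself divided by length.

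**Figure D1:**
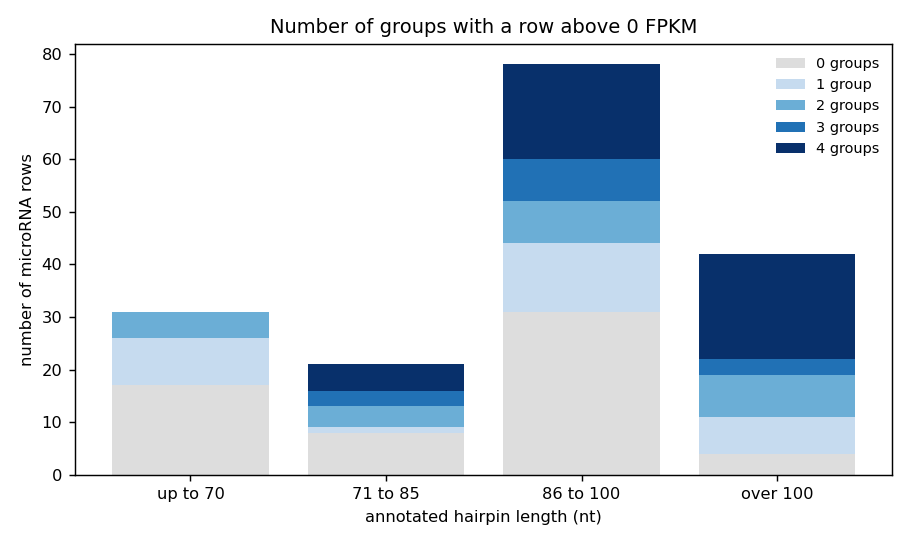
Number of microRNA rows (y axis) in each class of annotated hairpin length (x axis, nt), split by the number of groups, 0 to 4, in which the row was above 0 FPKM. The 31 shortest hairpins include 0 rows detected in all groups, against 20 of the 42 longest; the 2 rows with several hairpins are not shown.

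**Figure D2:**
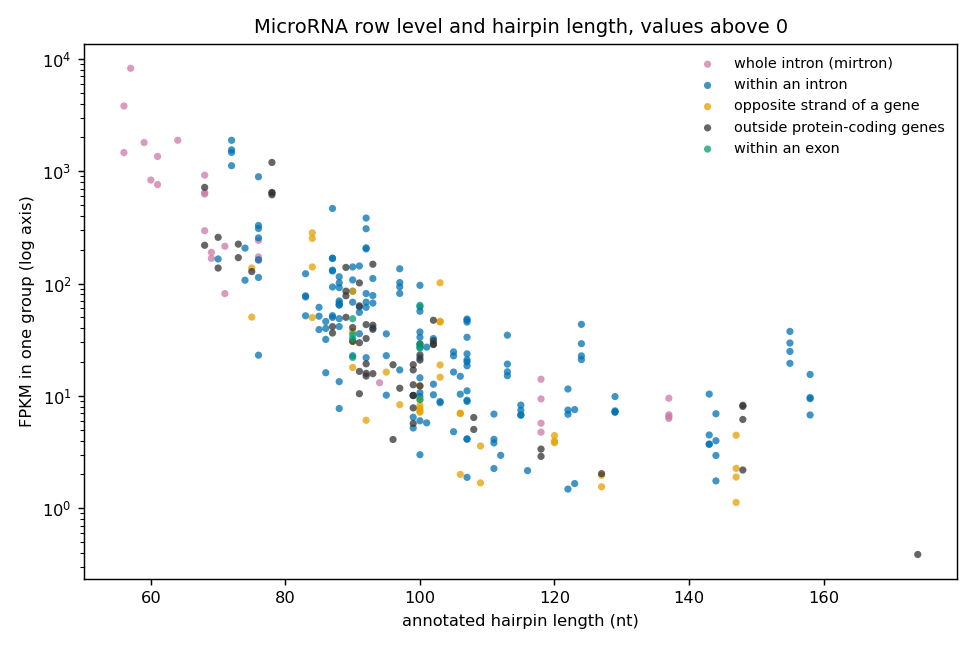
FPKM in 1 group (y axis, log scale) against annotated hairpin length (x axis, nt) for every value above 0, with each row drawn once per group in which it was above 0 and coloured by its position relative to protein-coding genes. The median goes from 718 FPKM at up to 70 nt to 7.51 FPKM over 100 nt.

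Equal values also occurred between rows of equal length. Of 200 pairs of values above 0 from 2 rows of the same hairpin length in 1 group, 3 were identical: mir-984 and mir-314 at 30.6 FPKM in control (both 90 nt), mir-34 and mir-285 at 10.1 FPKM in Ras (both 99 nt), and mir-210 and mir-274 at 12.3 FPKM in Ras (both 100 nt). Of 10507 pairs of unequal length, 0 were identical. Counts were not analysed here, so the number of fragments behind any value is unknown.

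Mirtrons, whose median hairpin length was 64 nt, held the highest values. Values either at 0 or high also occurred in short hairpins that are not mirtrons. An example is mir-13b-1, of 68 nt, at 718 FPKM in control and 0 in the other groups. The row of highest mean, mir-1008, a 57 nt mirtron of CG18004, was listed at 0 in control, at 8239 FPKM in Ras, and at 0 in both groups with altered hsrω labels. It was high in Ras alone, while its host row CG18004 was 24.1, 24.7, 27.1 and 23.2 FPKM in control, Ras, the RNAi-labelled group and the EP3037 group. Next among the mirtrons, mir-1003, 56 nt and filling an intron of CG6695, was 3804 FPKM in control, 0 in Ras, 0 in the RNAi-labelled group and 1464 in the EP3037 group. The row mir-3644 had the same order, with 1353 FPKM in control, 0, 0 and 760.3 in the EP3037 group. Both were detected in the same pair of groups and listed at 0 in the others. Another 2 of the 10 highest rows were above 0 in Ras alone: mir-1006 in VhaSFD, which encodes a subunit of the vacuolar proton pump, at 1885 FPKM, and mir-4916 in the receptor gene Ir8a at 1799 FPKM. The host Ir8a was 0.0849 to 0.166 FPKM in the 4 groups, so mir-4916 was listed far above the gene whose intron it fills.

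In the authors' deposited tables the comparisons of mir-1008 with a group at 0 gave p-values of 0.103 to 0.176, and those of mir-1003 with a group at 0 gave 0.139 to 0.239. A difference between 0 and 8239 or 3804 FPKM therefore did not pass the test. Of the 31 mirtrons, 16 were at 0 in all groups, 7 were above 0 in 1 group and 2 in all groups, the latter being mir-4915 and mir-3645 with hairpins of 118 and 137 nt. Mirtrons made up 5 of the 10 highest rows by mean FPKM. Tailor, the uridylyltransferase that marks mirtron hairpins in flies, was 40.1 FPKM in control, 39.7 in Ras, 37.4 in the RNAi-labelled group and 39.2 in the EP3037 group.

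The microRNAs of the mir-2 family, which share target sites in the cell death genes rpr, grim and skl, held 7 rows, of which 4 were above 0 in all groups. A trio of them lies in an intron of spi, which encodes the EGF receptor ligand Spitz that acts upstream of Ras (chromosome 2L, 19569490 to 19570264, minus strand, dm6). Among these, mir-2a-2 was 1469 FPKM in control, 1884 in Ras, 1548 in the RNAi-labelled group and 1119 in the EP3037 group. The row mir-2a-1 was 309 FPKM in control, 892 in Ras, 255 in the RNAi-labelled group and 329 in the EP3037 group, and mir-2b-2 was 51.6, 122, 77.7 and 76.0 in the same order. All 3 were highest in Ras. The host row spi was 133, 141, 138 and 136 FPKM in these groups, a narrower range. In the authors' deposited tables the largest log2 change of the 3 rows was -1.81, for mir-2a-1 from Ras to the RNAi-labelled group, at p = 0.314, the lowest p of the 3 rows.

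The second mir-2 cluster, outside protein-coding genes on chromosome 3R (15417408 to 15417845, minus strand, dm6), was less even. Its mir-13b-1 was 718 FPKM in control and its mir-13a 128 FPKM in control, and both were listed at 0 in the 3 groups with RasV12. The neighbouring mir-2c was 30.9 FPKM in control, 47.1 in Ras, 28.9 in the RNAi-labelled group and 28.6 in the EP3037 group. The cluster therefore held 2 rows seen in control alone beside 1 seen in all groups. In the authors' deposited tables control with the RNAi-labelled group gave p = 0.0312 for mir-13b-1 and p = 0.0363 for mir-13a, while control with Ras gave 0.0602 and 0.0706 and control with EP3037 gave the same 0.0602 and 0.0706; none passed after adjustment. The separate copy mir-13b-2, in an intron of the chaperonin gene CCT2, was 165 FPKM in the EP3037 group and 0 in the others. Summed over the 7 mir-2 family rows, the levels were 2706, 2945, 1910 and 1718 FPKM in control, Ras, the RNAi-labelled group and the EP3037 group.

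The microRNA mir-9a, which limits sensory organ number by repressing senseless, was 1196 FPKM in control, 640.0 in Ras, 616 in the RNAi-labelled group and 647 in the EP3037 group. It was highest in control and similar in the 3 groups with RasV12. It has a locus of its own on chromosome 3L (19565131 to 19565208, plus strand, dm6). The authors' deposited tables gave log2 changes from control of -0.90, -0.96 and -0.89 with p-values of 0.385, 0.327 and 0.353, so a difference of this size did not pass the test. The related mir-9c lies in an intron of grp, the fly Chk1 kinase gene, and was 307, 383, 203 and 208 FPKM in the same group order. In the same intron mir-306 was 51.2, 38.9, 0 and 61.4 FPKM, mir-79 was 17.0 FPKM in Ras and 0 elsewhere, and mir-9b was 0 in all groups. One intron thus held rows at several levels, down to 0, with mir-9c the highest in each group.

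**Figure D3:**
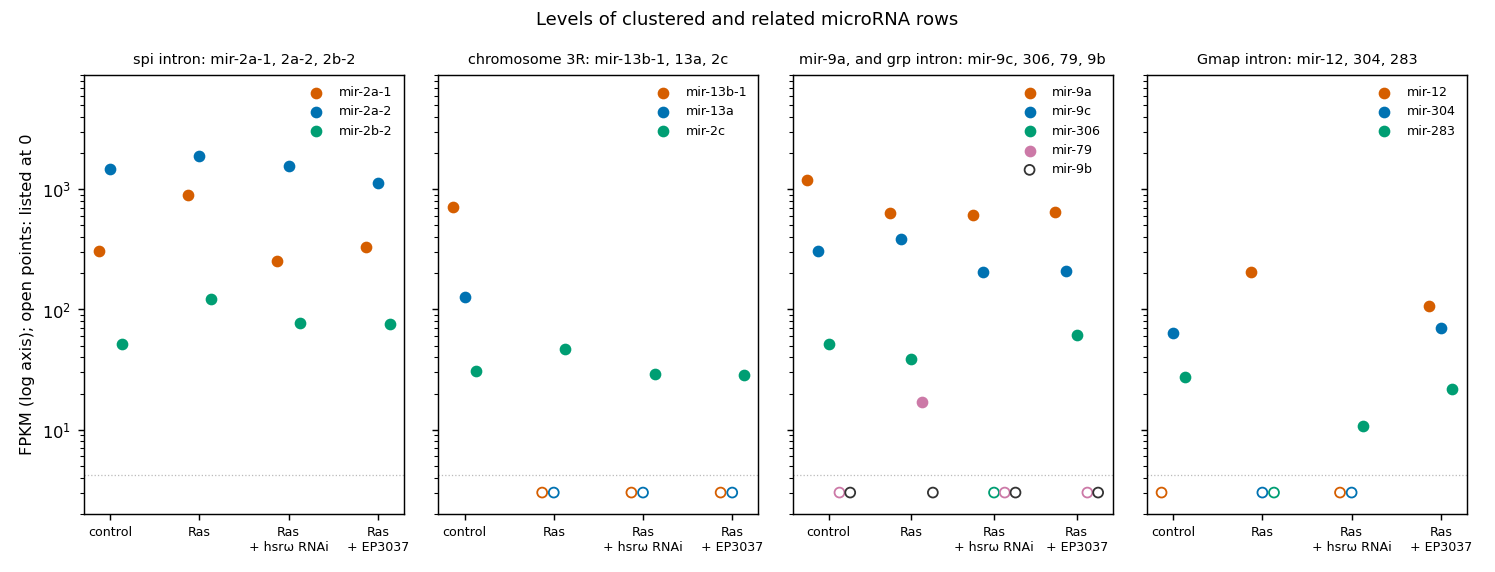
FPKM (y axis, log scale) of microRNA rows in 4 gene clusters, 1 panel per cluster with mir-9a added to the grp intron, in the 4 groups (x axis); each point is 1 pooled value, and open points under the dotted line are rows listed at 0. The 3 rows in the spi intron are above 0 in every group, whereas mir-13b-1 and mir-13a are above 0 in control only.

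The photoreceptor microRNA mir-7, which represses the Yan gene aop and lies in an intron of HnRNP-K (bl in the tables), was 67.2 FPKM in control, 64.8 in Ras, 41.4 in the RNAi-labelled group and 91.9 in the EP3037 group. Its lowest level was in the RNAi-labelled group, where Hsromega was not below its Ras level, and its highest in the EP3037 group. In the authors' deposited table for that pair the log2 change was 1.15 with p = 0.629. The host row bl was 82.9, 86.1, 92.7 and 84.1 FPKM in the same group order, highest where mir-7 was lowest. In an intron of E2f1, the cell cycle transcription factor, mir-998 was 4.48, 10.4, 3.71 and 3.71 FPKM, and its neighbour mir-11, which limits E2f1-dependent cell death, was 0 in all groups. The neuronal mir-124 and mir-263b, which protects eye bristle cells from death, were also 0 in all groups.

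The microRNAs mir-34, mir-317 and mir-305, known from ageing, ecdysone or growth control, were each listed at 0 in some groups. The row mir-34 was 18.9 FPKM in control, 10.1 in Ras, 12.6 in the RNAi-labelled group and 0 in the EP3037 group. Its cluster neighbour mir-317 was 43.1, 0, 32.4 and 15.9 FPKM, so these clustered rows were at 0 in different groups. The row mir-305 was 170 FPKM in Ras, 224 in the EP3037 group and 0 in the others. In the authors' deposited tables mir-317 and mir-305 had unadjusted p-values of 0.044 and 0.0368 between Ras and the RNAi-labelled group, and opposite signs. Of the 38 microRNAs on the list of those known from disc growth, fate or death, 18 were rows of their own; the others, with ban, mir-8 and mir-14 among them, were not analysed here.

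Rows that lie close together were compared for detection. Grouping rows on 1 strand within 10 kb gave 17 clusters with 55 rows. In 3 clusters every row was at 0 in all groups, in 8 every row was above 0 in some group, and 6 were mixed. Of the 7 rows from mir-310 to mir-992 only mir-992 was above 0, at 15.0 FPKM in the EP3037 group. In the Gmap intron, mir-12 was above 0 in Ras (207 FPKM) and EP3037 (107 FPKM), mir-304 in control (64.2 FPKM) and EP3037 (69.98 FPKM), and mir-283 in all groups but Ras. Only in the EP3037 group were these 3 rows detected together.

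Host level went with detection of the intronic rows. For the 64 same-strand intronic rows with a host row, the Spearman correlation of mean FPKM with that of the host was 0.43, and for the 29 above 0 in all groups it was 0.50; both are across genes in the same libraries. Of hosts split evenly into the lowest, middle and highest by mean FPKM, the lowest had 4 of 21 microRNA rows above 0 in all groups, against 12 of 21 in the middle and 13 of 22 in the highest. Differences between groups were not matched in size. From Ras to the RNAi-labelled group the median log2 change of 33 intronic rows was -0.90 beside 0.07 for their hosts, with 13 of the 33 in the direction of the host. From Ras to EP3037 the medians of 32 rows were -0.81 and -0.09, with 28 of 32 in the direction of the host. These were the lowest and highest such counts for their number of rows. From control the counts were 16 of 31 to Ras, 19 of 33 to the RNAi-labelled group and 24 of 35 to EP3037. From the RNAi-labelled group to EP3037 it was 18 of 34. These hosts, and so these counts, include rows that share an intron.

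For the 43 rows detected in all groups, 22 (51.2%) were highest in Ras, 11 in control, 6 in the EP3037 group and 4 in the RNAi-labelled group. The lowest value fell in the RNAi-labelled group for 20 rows (46.5%), in the EP3037 group for 13, in control for 6 and in Ras for 4. The median ratio of highest to lowest group was 2.79. Among 205 other rows whose annotated RNA is under 200 nt, 59.0% were also highest in Ras but 53.7% were lowest in control and 16.1% lowest in the RNAi-labelled group, with a median ratio of 1.90. Over all 12646 rows detected in all groups, 26.1% were highest in Ras and 31.4% lowest in the RNAi-labelled group, with a median ratio of 1.40. These shares describe 1 pooled value per group, and the difference between the kinds of row was not tested.

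**Figure D4:**
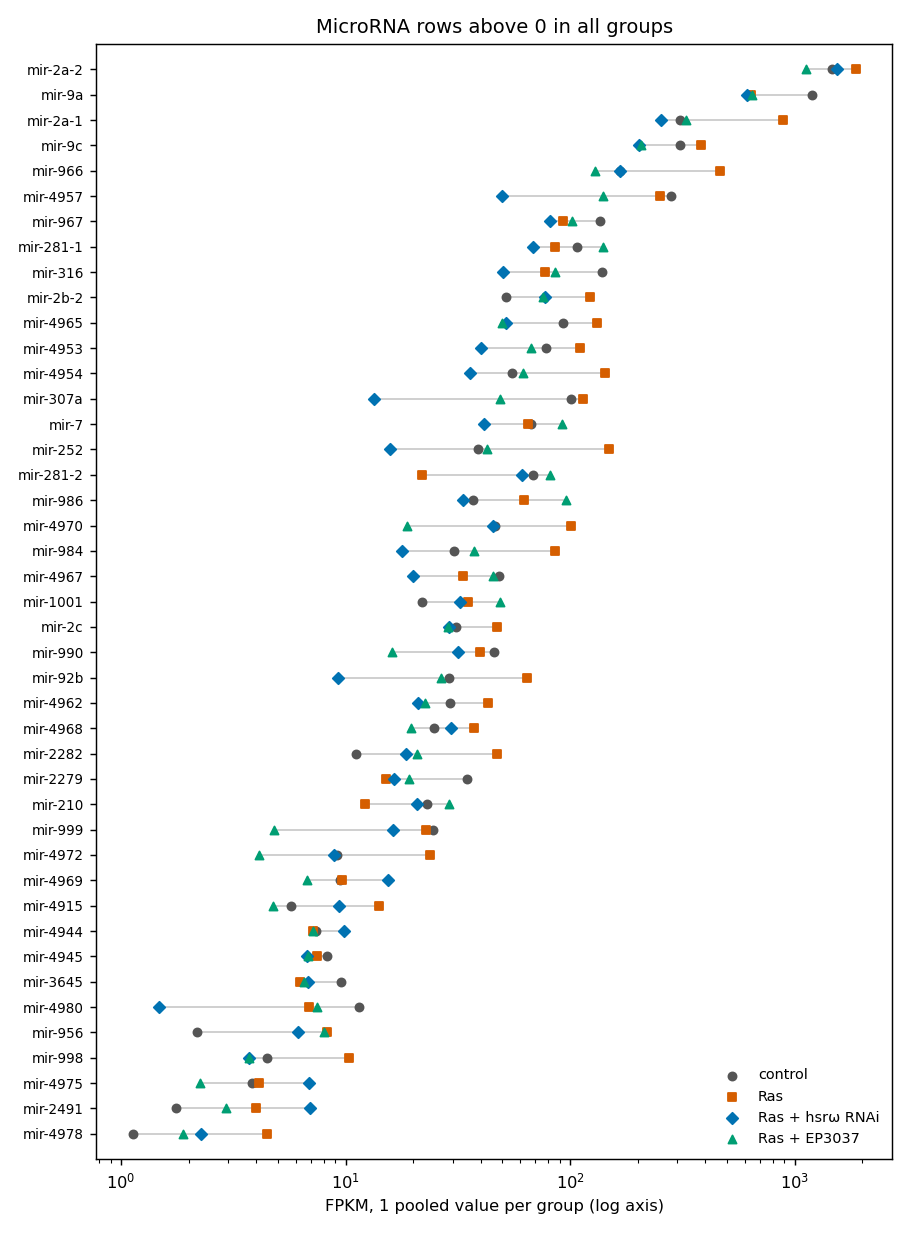
FPKM (x axis, log scale) of the 43 microRNA rows above 0 in all groups, ordered by mean level, with 1 symbol per group and a line from the lowest to the highest group. The Ras group is the highest for 22 rows and the RNAi-labelled group the lowest for 20.

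Whether activated Ras altered the microRNA rows was asked by control with Ras. The authors' deposited table tested 82 of the 174 rows and 0 passed a q of 0.05 in Cuffdiff, where 0.773% of all tested rows did. At an unadjusted p of 0.05, 1 of 82 rows passed (1.22%), against 4.63% of all rows. That row was mir-137, a neuronal microRNA, at 0 FPKM in control, 101 in Ras, 10.4 in the RNAi-labelled group and 16.5 in the EP3037 group, with p = 0.0153 and q = 0.449 in the authors' deposited table. It was highest in Ras and listed at 0 in control. Of the 48 tested rows above 0 in both groups, 16 were at least 2-fold higher and 2 at least 2-fold lower in Ras. The median log2 change was 0.43, beside 0.05 for all rows and 0.50 for the other RNAs under 200 nt. Over 23 other rows whose listed locus is under 200 nt it was 0.82. The median was -0.84 over the 7 microRNA rows with a locus of their own.

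The sharpest example by size, chosen after its values were seen, was mir-2282 in an intron of sty, the Sprouty gene that feeds back on Ras signalling. It was 11.1 FPKM in control, 47.1 in Ras, 18.5 in the RNAi-labelled group and 20.9 in the EP3037 group, a log2 change of 2.09 from control to Ras in the authors' deposited table at p = 0.303. Its host sty was 40.4, 49.8, 75.7 and 56.7 FPKM in the same order. The host was thus highest in the RNAi-labelled group and the microRNA row in Ras.

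Ras with the RNAi-labelled group set activated Ras alone against activated Ras with the RNAi construct, with dco2 listed in the Ras group only. Of 82 tested rows, 0 passed a q of 0.05 in Cuffdiff, against 0.743% of all rows, and 5 had an unadjusted p under 0.05 (6.1%, against 5.2% of all rows). Of those 5, 4 (mir-31a, mir-303, mir-954 and mir-317) were listed at 0 in Ras and above 0 in the RNAi-labelled group, and mir-305 was the reverse. Rows above 0 in both groups lay mostly the other way. The authors' deposited table gave lower levels in the RNAi-labelled group for 43 of 53 rows above 0 in both groups, 23 of them by at least 2-fold and 1 higher by that much. The median log2 change was -0.73, beside -0.02 for all rows and -0.35 for the other RNAs under 200 nt. It was also -0.73 over 26 other rows with a locus under 200 nt, so a fall of this size was not particular to microRNA rows. Chosen after their values were seen, mir-252 was 39.1 FPKM in control, 148 in Ras, 15.8 in the RNAi-labelled group and 42.5 in the EP3037 group, and mir-307a, in an intron of the matrix metalloproteinase gene Mmp2, was 102, 115, 13.4 and 48.7. Both were highest in Ras and lowest in the RNAi-labelled group, with log2 changes of -3.24 and -3.10 in the authors' deposited table at p-values of 0.295 and 0.408. The host Mmp2 was 118, 148, 163 and 132 FPKM, highest where mir-307a was lowest.

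Ras with EP3037 made the same comparison for the insertion, again with dco2 listed in the Ras group only. Of 79 tested rows, 0 passed a q of 0.05 in Cuffdiff, against 0.786% of all rows, and 0 had an unadjusted p under 0.05, against 5.89% of all rows. Of 50 rows above 0 in both groups, 18 were at least 2-fold lower in EP3037 and 2 at least 2-fold higher. The median log2 change of the 50 rows was -0.74, beside -0.05 for all rows and -0.38 for the other RNAs under 200 nt. Over 25 other rows with a locus under 200 nt it was -0.62. Over the 9 microRNA rows with a locus of their own the median was -0.034. This comparison and the previous one share the Ras samples, so their medians are not independent. The largest values in either direction, chosen after they were seen, were those of mir-137 (log2 change -2.62, p = 0.174) and of mir-281-2 in an intron of Oda (log2 change 1.90, p = 0.431) in the authors' deposited table. The row mir-281-2 was 68.3 FPKM in control, 21.9 in Ras, 61.4 in the RNAi-labelled group and 81.4 in the EP3037 group, lowest in Ras, whereas its neighbour mir-281-1 was 108, 85.4, 68.2 and 140.4.

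**Figure D5:**
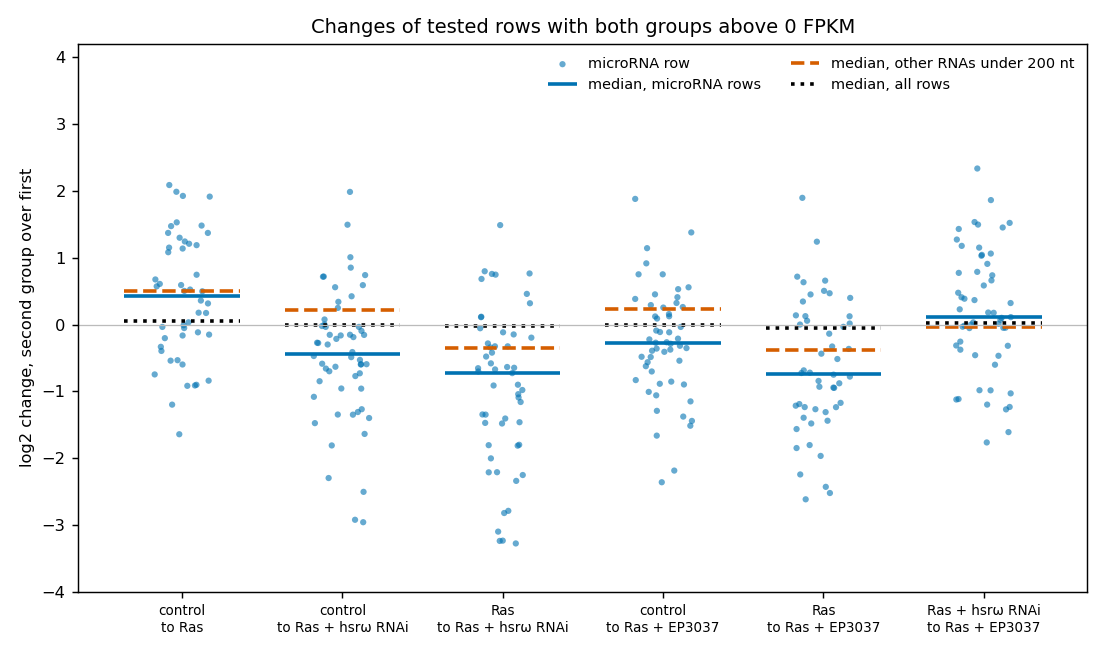
Log2 change, later-named over first-named group (y axis), for tested microRNA rows above 0 FPKM in both groups, in the 6 comparisons (x axis), from the authors' deposited tables; horizontal lines are medians of the microRNA rows, of other rows with annotated RNA under 200 nt and of all rows. From Ras to the RNAi-labelled group the microRNA median is -0.73 beside -0.35 for the other RNAs under 200 nt and -0.02 for all rows. Of the points, 0 passed a q of 0.05.

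The RNAi-labelled group and the EP3037 group, which carry hsrω labels in opposite directions, were compared directly. Of 77 tested rows, 0 passed a q of 0.05 in Cuffdiff, against 1.74% of all rows, and 1 (1.3%) had an unadjusted p under 0.05, against 9.43%. That row, mir-31a, was 19.3 FPKM in the RNAi-labelled group and 0 in the others, with p = 0.0394 in the authors' deposited table. The median log2 change of 55 rows above 0 in both groups was 0.11, with 13 rows at least 2-fold higher and 8 at least 2-fold lower in EP3037. The median was 0.02 for all rows, -0.04 for the other RNAs under 200 nt and 0.22 over 27 other rows with a locus under 200 nt.

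Set against control, both combined genotypes had lower medians, and both share the control samples with the Ras comparison. From control to the RNAi-labelled group, 0 of 78 tested rows passed a q of 0.05 in Cuffdiff, against 1.72% of all rows, and 6 had an unadjusted p under 0.05 (7.69%, against 8.74%), 4 of them higher and 2 lower in the RNAi-labelled group. The lowest p of any microRNA row, 0.0061 with q = 0.264 in the authors' deposited table, was that of mir-285. It was listed at 0 in control, at 10.1 FPKM in Ras, 17.0 in the RNAi-labelled group and 7.82 in the EP3037 group. From control to EP3037, 0 of 74 passed the q in Cuffdiff, against 0.643%, and 0 had an unadjusted p under 0.05, against 3.52%. The median log2 changes were -0.44 over 56 rows and -0.28 over 54 rows, beside -0.0043 and -0.0063 for all rows. For the other RNAs under 200 nt they were 0.22 and 0.23, and over 26 and 24 other rows with a locus under 200 nt, 0.09 and 0.28.

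Over the 6 comparisons the authors' deposited tables held 472 tests of 95 microRNA rows, and 13 tests of 10 rows reached an unadjusted p of 0.05. By comparison the share at that p was 0.0% to 7.69% of microRNA rows, against 3.52% to 9.43% of all rows. Each of the 13 tests had 1 group at 0 and concerned rows with a locus of their own. Among rows inside another gene's locus, 106 tests with a group at 0 had p-values from 0.0955 to 0.265, and 261 tests with both groups above 0 had p-values from 0.280 to 0.982. Rows with a locus of their own had p-values from 0.174 to 0.972 when both groups were above 0. Among all rows above 0 in both groups, the smallest absolute log2 change called was 0.66 to 0.75 depending on the comparison, so microRNA rows with far larger log2 changes went without a call. Of the other tested rows with annotated RNA under 200 nt, 3 of 237 were called from control to Ras and 0 of 246 from Ras to EP3037.

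Levels of the genes that make and use microRNAs are given next, from a list of 22. All 22 were tested in each comparison and 0 passed a q of 0.05 in Cuffdiff in any. Drosha was 13.1 FPKM in control, 13.1 in Ras, 13.5 in the RNAi-labelled group and 11.6 in the EP3037 group, and Dcr-1 was 11.4, 12.3, 13.7 and 10.9. The row that joins AGO1 with DJ-1alpha was 89.0, 92.4, 104 and 89.5 FPKM, and gw was 86.7, 95.9, 92.6 and 82.0. Their group ranges were narrower than those of most microRNA rows. At an unadjusted p of 0.05, 2 were higher from control to the RNAi-labelled group, where 8.74% of all rows passed in either direction, and 1, pcm, was lower from Ras to EP3037, against 5.89%. From the RNAi-labelled group to EP3037, 4 were lower and 1 higher, against 9.43%, and the other 3 comparisons had 0. The lowest p in the first of these belonged to pcm, the XRN1 exonuclease, at 12.6, 16.1, 19.5 and 11.9 FPKM in the 4 groups, with a log2 change of 0.63, p = 0.0012 and q = 0.0893 in the authors' deposited table. The lowest p of the whole list was also that of pcm, from the RNAi-labelled group to EP3037. There the authors' deposited table gave a log2 change of -0.71, p = 0.00065 and q = 0.0577. The median log2 change of the 22 genes lay between -0.18 and 0.10 in the 6 comparisons.

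Of 16 textbook targets of disc microRNAs, 15 were tested and 0 passed a q of 0.05 in Cuffdiff in any comparison. From control to the RNAi-labelled group, 3 were higher and 1 lower at an unadjusted p of 0.05, where 8.74% of all rows passed. From control to EP3037, 1 was lower (3.52% of all rows passed), from the RNAi-labelled group to EP3037 1 was higher and 2 lower (9.43%), and the other 3 comparisons had 0. Among them aop, the mir-7 target, was 68.1 FPKM in control, 88.0 in Ras, 106 in the RNAi-labelled group and 67.6 in the EP3037 group, with a log2 change of 0.65 from control to the RNAi-labelled group at p = 0.0037 and q = 0.193 in the authors' deposited table. It was highest in the group where mir-7 was lowest, but from control to Ras aop went from 68.1 to 88.0 FPKM while mir-7 was 67.2 and 64.8. The relation was not tested. The lowest p among the targets from control to the RNAi-labelled group was that of nerfin-1, 0.0014 with q = 0.0991 in the authors' deposited table. The mir-2 family target rpr was 15.4, 12.1, 10.9 and 17.4 FPKM, and the mir-9a target sens was 8.85, 8.27, 8.14 and 7.91.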

How the data were processed

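Per the submitters' processing notes the reads were handled with TopHat, Bowtie, Cufflinks and Cuffdiff 2.1.1 on dm6. The authors deposited 6 pairwise tables holding 1 pooled FPKM value per gene and group, with no value per sample, so levels carry no SD or n, and depth is unknown. The tables also hold the authors' log2 change, the test statistic (a score, per the file headers) and the authors' p-value and q-value. The RNAi-labelled group entered the authors' test with 4 inputs for 3 samples. Nothing in the labels says that the samples of a group were separate crosses, so p-values measure only their own spread, which may be technical.

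A row was called at status OK and q at or under 0.05. Because the tables hold pooled values, the deposited Cuffdiff test was used as it stands. Log2 medians cover tested rows above 0 in both groups, and rows at 0 were given no fold change. Hairpins, hosts and strands came from Ensembl release 115 (BDGP 6, the assembly of dm6); a mirtron is a hairpin within 2 nt of a whole annotated intron at both ends. Per the labels the kit keeps strand; whether the counting used strand is not given in the sources used here, so sense and antisense overlaps are uncertain. The named rows were those called, those with p at or under 0.01, the 10 of highest mean FPKM and a list of microRNAs known from the eye disc, and others were picked with values in view or illustrate a count. The members and lists were chosen with earlier results of these data known. Summaries were computed with Python 3.11.15, pandas 2.3.3 and numpy 2.4.6, tested on simulated data, and figures drawn with matplotlib 3.10.9. Alternatives were other thresholds, pseudocounts of 1 and 0.1, and rows with a locus of their own.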

Additional observations from a re-analysis of the deposited data

How the results depend on the processing

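No microRNA row was called in any of the 6 comparisons at a q of 0.05, so none could be called at a q of 0.01 or over the subsets of rows tried. At a q of 0.1, or with adjustment within a comparison, where calls could have appeared, none was called either. With an unadjusted p at or under 0.05 the count was 1 for control with Ras, 6 for control with the RNAi-labelled group, 5 for Ras with that group and 1 for that group with EP3037. Of 42 alternative medians of log2 change, including those over rows above 0 in all groups, which were chosen after seeing the data, 38 lay within 1.5-fold of the reported one. That limit is wider than the smaller reported medians, such as 0.11 from the RNAi-labelled group to EP3037, so a move to 0.0 counted as within it. The alternative of rows with a single symbol kept the same tested rows and could not differ. The 38 therefore do not measure how stable the medians are. Over rows with a locus of their own the median from control to Ras was -0.84 over 7 rows and from Ras to EP3037 was -0.034 over 9 rows. Pseudocounts of 1 and 0.1 were applied to 112 rows that include those at 0. The median was then 0.0 in 5 of 6 comparisons, Ras to EP3037 among them. From Ras to the RNAi-labelled group it was -0.16 and -0.17. A row at 0 in both groups of a pair has a change of exactly 0 here, and the medians of 0.0 fall on such rows. The median from Ras to the RNAi-labelled group kept its sign in 7 of 7 alternatives, from -0.81 to -0.16, that from control to Ras in 4 of 7, and the other 4 in 5 of 7 each. The alternatives overlap and are not separate checks. From Ras to the RNAi-labelled group, rows with a single symbol and rows with a mean FPKM of at least 1 were the same 53 rows as the reported median. Without mir-1008 the summed level in Ras was 13229 FPKM in place of 21467. Over rows with a locus of their own the sums were 2408 FPKM in control, 1232 in Ras, 1050.4 in the RNAi-labelled group and 1621 in the EP3037 group, so that Ras was no longer the highest. No paired analysis was possible because the tables hold 1 pooled value per group, and for the same reason no replicate block was fitted and no replicate was left out. Fragment counts behind each value are unknown, so no detection floor could be set for rows listed at 0.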

Other observations

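The median of values above 0 was 32.4 FPKM in control, 43.3 in Ras, 16.3 in the RNAi-labelled group and 22.8 in the EP3037 group. The RNAi-labelled group had the most microRNA rows above 0, with 81 against 69, 69 and 75 in control, Ras and EP3037, and the fewest at 100 FPKM or more, with 9 against 18, 23 and 18. Its summed level over the 174 rows was 5579 FPKM, beside 12439 in control, 21467 in Ras and 7974 in the EP3037 group. The rows above 0 in a single group numbered 3 in control, 9 in Ras, 11 in the RNAi-labelled group and 7 in the EP3037 group. Of the 9 in Ras, 5 were mirtrons, against 0 of the 3 in control, 1 of the 11 in the RNAi-labelled group and 1 of the 7 in the EP3037 group. The highest of the 11 was mir-4912, an intron-filling hairpin of the farnesyltransferase gene Fnta, at 834 FPKM, and the highest of the 7 was mir-318, at 219 FPKM.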
